A study of Mus musculus with 12 samples.

Results

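The Janus kinases Jak1, Jak2 and Tyk2, the suppressors of cytokine signalling Socs1, Socs2, Socs3 and Cish, the serine/threonine kinases Pim1 and Pim3, and Pias3 were described in mouse oesophageal epithelium. These 10 genes were taken by symbol from the 23337 gene symbols of the count files as a named pathway group, and all 10 had enough counts to be tested. JAK kinases sit on the inner ends of cytokine receptors and, once a ligand has bound, phosphorylate the receptor and the STAT transcription factors that dock on it. Active STATs switch on SOCS genes, whose proteins bind receptors or JAKs and dampen the signal, so that SOCS transcripts are widely read as a measure of recent STAT activity. Pim1 and Pim3 are survival kinases that STATs can also induce, and Pias3 binds active STAT3 and limits its contact with DNA.

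The study used C57BL/6 mice at 6 weeks of age, in which Cre under the Epstein-Barr virus ED/L2 promoter, described as specific to oesophageal epithelial cells, acts on a Stop cassette or on floxed exons. The Ikkβca+Stat3KO group carried ED/L2-Cre+, ROSA26-StopFL-Ikk2ca+/L and Stat3L/L. The Ikkβca group carried ED/L2-Cre+ and ROSA26-StopFL-Ikk2ca+/L, which yields a constitutively active IKKβ, the kinase that activates NF-κB. The Stat3KO group carried ED/L2-Cre+ and Stat3L/L, and loses STAT3 in the cells that express Cre. Control animals carried ROSA26-StopFL-Ikk2ca+/L and Stat3L/L but no Cre, so presence of Cre cannot be told apart from the allele it acts on in any comparison with Control. The same limit holds for differences averaged over both backgrounds and for the interaction of the alleles, because they too use Control. Each group had 3 libraries of polyA RNA from epithelium peeled from its stroma. The labels do not say that the libraries came from separate animals, and p-values therefore measure the spread between these libraries.

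Library totals ran between 14816468 and 30188363 counts. Levels are given as CPM, counts divided by library size after TMM scaling of the libraries. All 20 markers of oesophageal epithelium were detected, and their summed level was 64600 to 206000 CPM. The 14 gastric markers in the files summed to 3190 CPM in Ikkβca replicate 1 and 238 CPM in Stat3KO replicate 3, against 1.67 to 32.5 CPM elsewhere. Skeletal muscle markers summed to 985 CPM in Stat3KO replicate 2, 1990 CPM in Stat3KO replicate 3 and 1010 CPM in Ikkβca replicate 1, against 24.3 to 689 CPM in the other libraries. In bulk epithelium, fewer cells of a type and less RNA per cell cannot be told apart.

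Of the targeted genes, Ikbkb, which encodes IKKβ, rose on average over both Stat3 backgrounds by a log2 fold change of 0.43 ± 0.10 (SE; adjusted p = 0.0373, edgeR quasi-likelihood test, Benjamini-Hochberg over 14134 genes), a call that 10 of the 12 refits without 1 library did not make, at 0.35 to 0.52 over all alternatives. Stat3 had 170, 154 and 194 CPM in the Ikkβca+Stat3KO group, 158, 222 and 239 CPM in the Ikkβca group, 139, 154 and 145 CPM in the Stat3KO group, and 174, 157 and 179 CPM in the Control group. The average difference with Stat3KO was -0.24 ± 0.11 on the log2 scale (SE; adjusted p = 0.391). Counts over the whole gene include reads outside the floxed exons, so they check the deletion only in part.

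STAT proteins bind palindromes of the form TTCNNNGAA, in which N is any base. The letters were searched in RefSeq promoter windows (GRCm38.p6, 250 bases before to 50 after a start site), where the motif reads alike on both strands. Windows were found for 9 of the 10 genes, Socs2 being the exception, and 2 of their 11 windows held it, those of Socs3 and Cish. Among 32851 windows of the same length, 8.3% held the motif. Stretches of 100 bases around the matches follow, 5′ to 3′ on each gene's own strand with the motif in capitals, because Socs3 and Cish are the genes whose transcripts are most used as STAT readouts. The Socs3 stretch is chr11:117969471-117969570 on the minus strand, and its match begins 154 bases before the start site.
Socs3: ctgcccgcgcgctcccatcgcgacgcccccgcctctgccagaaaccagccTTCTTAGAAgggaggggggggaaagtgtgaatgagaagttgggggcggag
The Cish stretch is chr9:107296589-107296688 on the plus strand, with matches that begin at positions 1 and 12 counted from the RefSeq start site.
Cish: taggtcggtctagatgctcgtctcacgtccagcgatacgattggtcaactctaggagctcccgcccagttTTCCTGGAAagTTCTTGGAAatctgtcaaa
In the GENCODE M21 annotation both genes begin upstream of these RefSeq sites, Socs3 at base 117970047 and Cish at base 107296026, so the printed stretches lie inside the annotated genes. The windows of the other 7 genes held no match, which says only that these letters are not in them. A match describes letters and is no evidence of binding.

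None of the 10 genes was called at an adjusted p below 0.05 in any of 8 comparisons. Beside this, edgeR called 0.955% of all genes in Ikkβca against Control, 0.0% in Stat3KO against Control and 0.884% in Ikkβca+Stat3KO against Control. It called 0.0% in Ikkβca+Stat3KO against Ikkβca and 0.46% in Ikkβca+Stat3KO against Stat3KO. The difference averaged over both backgrounds was called for 2.72% of genes with Ikkβca and 0.262% with Stat3KO, and the interaction of the alleles for 0.0%. With so few genes called anywhere, a count of 0 among 10 lies near the background. At an unadjusted p below 0.05, edgeR and DESeq2 each placed 0 of the 10 genes in every comparison. Over all genes, edgeR placed 13.0%, 7.5% and 11.5% there for Ikkβca, Stat3KO and Ikkβca+Stat3KO against Control, 9.88% for Ikkβca+Stat3KO against Ikkβca and 8.96% for it against Stat3KO. The shares were 15.5% for the average Ikkβca effect, 12.7% for the average Stat3KO effect and 4.66% for the interaction. DESeq2 called 0 of the 10 genes after adjustment in each comparison. Its shares are of the genes for which it gave an adjusted p, 14890 to 18426 by comparison, against 14134 for edgeR. They were 2.69%, 0.682% and 3.03% for the same 3 groups against Control, 0.88% for Ikkβca+Stat3KO against Ikkβca and 1.92% for it against Stat3KO. For the averages and the interaction DESeq2 called 5.42% with Ikkβca, 2.52% with Stat3KO and 0.0271%. The smallest adjusted p of any of the 10 genes in the 8 comparisons was 0.494, for Jak2 in Ikkβca+Stat3KO against Control. A p that misses the threshold does not show that levels were equal, so intervals are given.

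**Figure D1:**
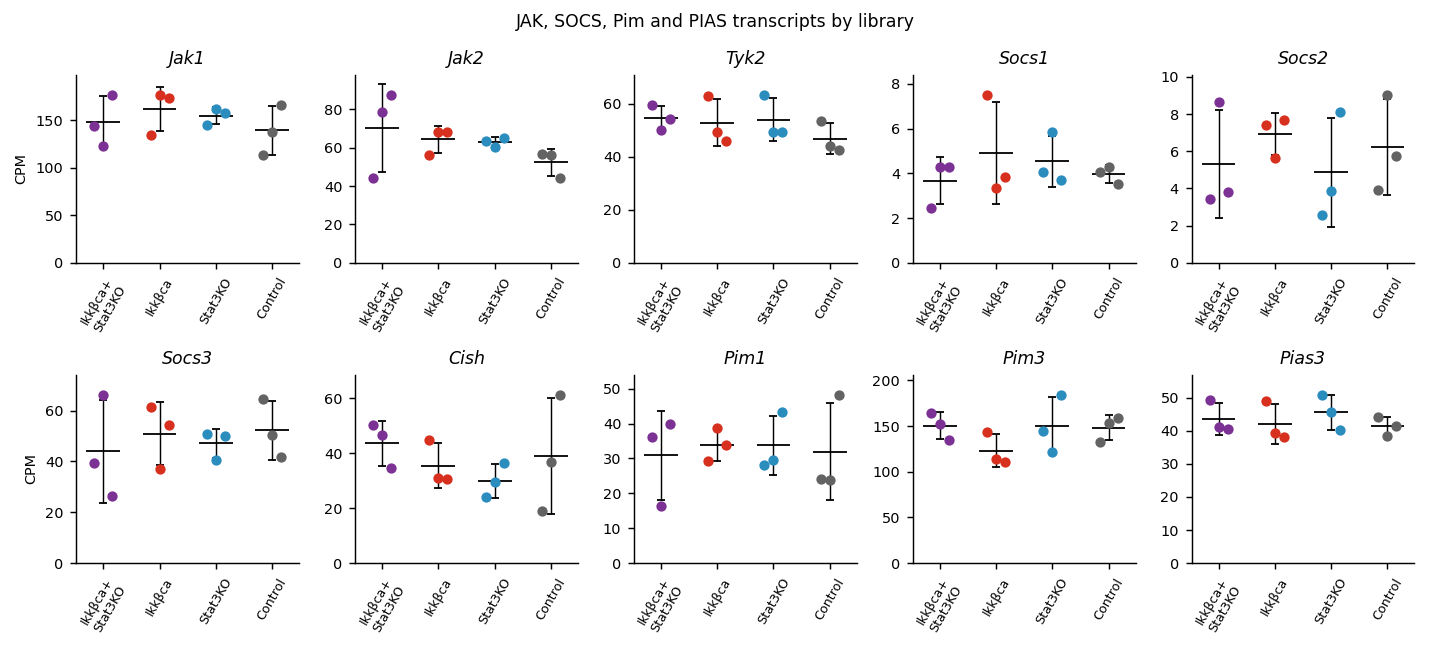
Transcript level (CPM, axes from 0) of each gene in each library. Points are libraries, the horizontal line is the group mean and bars are ± SD (n = 3). Groups overlap in nearly every panel; the Stat3KO points for Jak2 (60.4 to 65.3 CPM) all lie above the Control points (44.3 to 57.0 CPM).

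The 95% intervals limit the size of an average change. For Ikkβca averaged over both Stat3 backgrounds, the 95% interval lay between -1 and 1 on the log2 scale for 10 of 10 genes, against 77.0% of all genes. For Stat3KO averaged over both Ikkβca backgrounds it did so for 9 of 10 genes, against 76.8%, and Socs2 was the exception. The median log2 fold change of the 10 genes was 0.04 with Ikkβca, against 0.0 over all genes, and -0.01 with Stat3KO, against -0.01 over all genes. The interaction, which asks whether the Stat3KO difference depends on Ikkβca, was wider, and its interval lay inside those bounds for 6 of 10 genes, against 53.2% of all genes. Since only Control lacks Cre, presence of Cre cannot be told apart from the interaction or from part of either average.

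**Figure D2:**
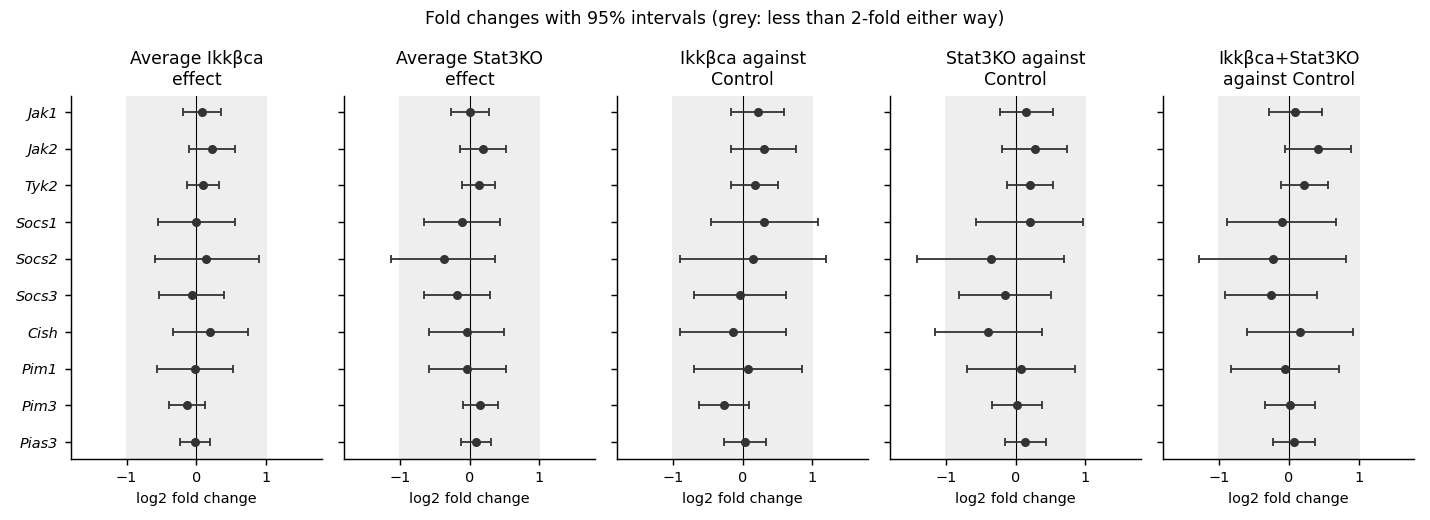
Log2 fold change of each gene (points) with its 95% interval (bars) in 5 comparisons from the fit of 12 libraries. Grey marks changes of less than 2-fold either way; every interval crosses 0, and all 10 lie inside the grey band for the average Ikkβca effect.

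Jak1 serves receptors of the IL-6 and interferon families. Jak2 serves receptors of growth hormone, erythropoietin, GM-CSF and interferon gamma, and Tyk2 serves type I interferon, IL-10 and IL-12 family receptors. Jak1 (chr4:101152367-101265282, minus strand, mm10) had 144, 123 and 177 CPM in the Ikkβca+Stat3KO group, 135, 177 and 174 CPM in the Ikkβca group, 145, 162 and 158 CPM in the Stat3KO group, and 114, 138 and 166 CPM in the Control group. The ranges of all 4 groups overlapped, with means of 148 ± 27.1 CPM in the Ikkβca+Stat3KO group, 162 ± 23.3 CPM in the Ikkβca group, 155 ± 9.11 CPM in the Stat3KO group and 139 ± 26.1 CPM in the Control group (SD, n = 3 each). Its average log2 difference was 0.08 with Ikkβca (95% interval -0.19 to 0.35) and 0.01 with Stat3KO (-0.26 to 0.28), or folds of 0.875 to 1.27 and 0.835 to 1.21.

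Jak2 (chr19:29251828-29313080, plus strand) had 44.3, 78.5 and 87.7 CPM in the Ikkβca+Stat3KO group, 56.4, 68.4 and 68.3 CPM in the Ikkβca group, 63.4, 60.4 and 65.3 CPM in the Stat3KO group, and 57.0, 56.1 and 44.3 CPM in the Control group. It was the single gene of the 10 whose groups did not overlap in any comparison, all Stat3KO libraries lying above all Control libraries. In that comparison 13.1% of all genes did not overlap, and 6.96% of all genes were separate and higher in Stat3KO, as Jak2 was. The other shares of genes that did not overlap were 17.6% for Ikkβca and 15.0% for Ikkβca+Stat3KO against Control, 14.7% for Ikkβca+Stat3KO against Ikkβca and 12.9% for it against Stat3KO. Genes separate the same way in both backgrounds were 4.0% for Ikkβca and 2.46% for Stat3KO. That difference was 0.27 ± 0.21 on the log2 scale (SE; 95% interval -0.20 to 0.73; adjusted p = 0.833, edgeR). In Ikkβca+Stat3KO against Control it was 0.42 ± 0.21 (SE; -0.05 to 0.89; adjusted p = 0.494, edgeR), with Ikkβca+Stat3KO replicate 1 as low as the lowest Control library. Without that library the value was 0.67 and the adjusted p was 0.0727, the smallest for any of the 10 genes in any of the settings tried.

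Tyk2 (chr9:21104068-21131243, minus strand) had 59.5, 50.2 and 54.4 CPM in the Ikkβca+Stat3KO group, 63.2, 49.6 and 46.2 CPM in the Ikkβca group, 63.5, 49.3 and 49.4 CPM in the Stat3KO group, and 53.6, 44.3 and 42.8 CPM in the Control group. In every group the first replicate was the highest, a pattern that Pias3 shared, and no groups were separate. That replicate was also the 1 library of each group with high Xist, the transcript of the inactive X chromosome in females, and the part of sex in these values was not tested. The average log2 difference was 0.10 with Ikkβca (95% interval -0.14 to 0.33) and 0.13 with Stat3KO (-0.11 to 0.36). Jak3, the remaining family member, which pairs with the common gamma chain of lymphocyte receptors, was scarcer at 5.39 to 15.2 CPM per library and was not called in any comparison.

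Socs3, the feedback inhibitor most closely tied to STAT3 and IL-6 family receptors, was not called with either allele. It had 39.2, 66.1 and 26.4 CPM in the Ikkβca+Stat3KO group, 61.2, 37.1 and 54.2 CPM in the Ikkβca group, 50.7, 40.4 and 50.0 CPM in the Stat3KO group, and 64.7, 50.2 and 41.9 CPM in the Control group (chr11:117966079-117970047, minus strand). The lowest and the highest of the 12 libraries were both in the Ikkβca+Stat3KO group. The average log2 difference was -0.18 ± 0.21 with Stat3KO (SE; adjusted p = 0.786, edgeR), a fold change of 0.882 with a 95% interval of 0.637 to 1.22. With Ikkβca the average was -0.07 ± 0.21 (SE; 95% interval -0.54 to 0.40). In Ikkβca+Stat3KO against Control the value was -0.25, and -0.67 without Ikkβca+Stat3KO replicate 2.

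Cish, the SOCS family member tied to STAT5, varied most within the Control group. It had 50.1, 46.5 and 34.5 CPM in the Ikkβca+Stat3KO group, 44.9, 30.9 and 30.5 CPM in the Ikkβca group, 24.0, 29.5 and 36.3 CPM in the Stat3KO group, and 19.1, 36.8 and 61.2 CPM in the Control group (chr9:107296026-107302784, plus strand). The Control libraries held both the lowest and the highest value, so each other group lay inside the Control range. Its largest difference was 0.55 ± 0.35 for Ikkβca+Stat3KO against Stat3KO (SE, log2; 95% interval -0.22 to 1.31; adjusted p = 0.728, edgeR). Its interaction of 0.69 ± 0.49 was the highest of the 10 genes and was not called (adjusted p = 1.0). Without Control replicate 3 the value against Control turned from -0.14 to 0.34 for Ikkβca and from -0.39 to 0.10 for Stat3KO.

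Socs1, an inhibitor of JAK1, JAK2 and TYK2 that interferons induce, was the scarcest per length of the 10 genes. It had 2.45, 4.30 and 4.29 CPM in the Ikkβca+Stat3KO group, 7.52, 3.34 and 3.83 CPM in the Ikkβca group, 4.06, 5.84 and 3.71 CPM in the Stat3KO group, and 4.08, 4.29 and 3.51 CPM in the Control group (chr16:10782240-10785536, minus strand). Ikkβca replicate 1, the highest library, was also the one with the gastric signal and a leukocyte marker sum of 384 CPM. Of that sum, 269 CPM came from Lyz2, the lysozyme of macrophages. Ikkβca replicates 2 and 3 had sums of 131 and 147 CPM, with 26.5 and 40.1 CPM from Lyz2. In Ikkβca against Control, Socs1 differed by 0.31 with Ikkβca replicate 1 and -0.14 without it. The part of other cell types in the value was not tested. Socs2, which restrains growth hormone signalling, had 3.45, 8.65 and 3.82 CPM in the Ikkβca+Stat3KO group, 7.42, 5.61 and 7.70 CPM in the Ikkβca group, 2.57, 3.87 and 8.13 CPM in the Stat3KO group, and 3.91, 9.04 and 5.72 CPM in the Control group (chr10:95385362-95417180, minus strand). The ranges of its 4 groups overlapped, and its average log2 difference with Stat3KO was -0.37 (95% interval -1.12 to 0.37), the widest of the 10 genes.

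Pim1 and Pim3 phosphorylate overlapping substrates that favour survival and growth. Pim1 (chr17:29490753-29496112, plus strand) had 36.3, 16.4 and 39.9 CPM in the Ikkβca+Stat3KO group, 29.2, 38.7 and 33.8 CPM in the Ikkβca group, 28.1, 29.7 and 43.4 CPM in the Stat3KO group, and 24.0, 23.8 and 48.2 CPM in the Control group. Control replicate 3 held the highest value and Ikkβca+Stat3KO replicate 2 the lowest. Its average log2 difference was -0.02 with Ikkβca (95% interval -0.57 to 0.52) and -0.03 with Stat3KO (-0.58 to 0.52). Leaving out Control replicate 3 moved Ikkβca against Control from 0.08 to 0.50 and Stat3KO against Control from 0.07 to 0.50, and neither was called.

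Pim3 (chr15:88862186-88865726, plus strand) had 164, 152 and 135 CPM in the Ikkβca+Stat3KO group, 144, 114 and 111 CPM in the Ikkβca group, 145, 122 and 184 CPM in the Stat3KO group, and 133, 153 and 159 CPM in the Control group. The Ikkβca group had the lowest mean, 123 ± 18.2 CPM, against 148 ± 13.4 CPM in the Control group (SD, n = 3 each), with Ikkβca replicate 1 inside the Control range. That difference was -0.27 ± 0.16 on the log2 scale (SE; 95% interval -0.63 to 0.09; adjusted p = 0.52, edgeR). Pias3 (chr3:96696384-96706070, plus strand) was the steadiest of the 10 genes, with 38.0 to 50.8 CPM over all 12 libraries. Its group means were 43.6 ± 4.83 CPM in the Ikkβca+Stat3KO group, 42.1 ± 6.09 CPM in the Ikkβca group, 45.6 ± 5.35 CPM in the Stat3KO group and 41.3 ± 2.88 CPM in the Control group (SD, n = 3 each). Its average log2 differences were -0.02 with Ikkβca (95% interval -0.23 to 0.19) and 0.09 with Stat3KO (-0.12 to 0.31).

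Per kilobase of exon, the scale on which levels of different genes can be compared, Pim3 stood highest with a mean of 59.0 CPM per kb and Jak1 next with 30.8. Socs3 followed with 19.0, Pias3 with 14.0, Jak2 with 12.4, Pim1 with 10.5, Cish with 10.2 and Tyk2 with 9.38 CPM per kb. Socs2 with 2.16 and Socs1 with 1.47 CPM per kb were lowest. Only the steps from Pim3 to Jak1 and from Tyk2 to Socs2 were wider than the spread over libraries, the higher gene's lowest library lying above the lower gene's highest in both. The ranges of all other neighbours overlapped. Genes further apart in the order could still be separate, as were Pias3, with 12.3 to 16.5 CPM per kb, and Tyk2, with 7.7 to 11.4 CPM per kb.

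**Figure D3:**
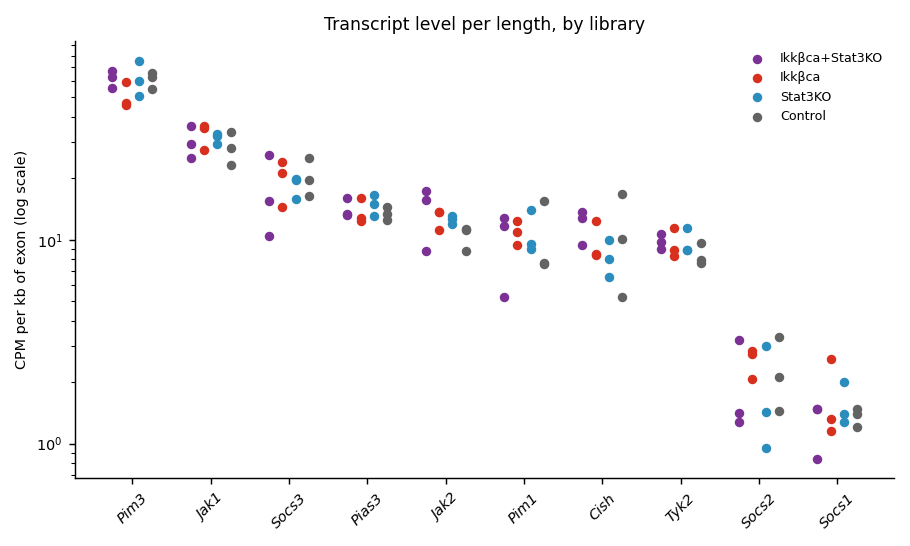
Level of each gene in CPM per kb of exon (log axis), 1 point per library, coloured by group and ordered by the mean over 12 libraries. Pim3 lies apart at the top, and Socs2 (2.16 on average) and Socs1 (1.47) apart at the bottom, whatever the genotype.

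The 10 genes differed in how much they varied between libraries of 1 genotype. The within-group SD on the log2 scale was 0.16 for Pias3, 0.19 for Tyk2, 0.20 for Pim3, 0.22 for Jak1 and 0.30 for Jak2. It was 0.42 for Socs1 and Socs3, 0.49 for Cish, 0.50 for Pim1 and 0.63 for Socs2, against a median of 0.28 over all genes tested. No test was made of that ordering.

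The order of all 12 libraries, whatever their genotype, was set beside the share of counts from Krt4 and Krt13. These are the keratins of the suprabasal, differentiating layers. That share was 11.6%, 4.05% and 13.4% in the Ikkβca+Stat3KO group, 5.06%, 13.8% and 12.8% in the Ikkβca group, 6.01%, 6.62% and 10.4% in the Stat3KO group, and 5.22%, 6.22% and 13.9% in the Control group. Each group held libraries of both kinds, 6 with a share of at most 6.62% and 6 with at least 10.4%. All 6 libraries of low share were the 6 lowest for Pim1, and 5 of them were among the 6 lowest for Jak1. For Socs3 and Socs1 the order was turned round, 5 of those 6 libraries being among the 6 highest. Cish and Socs2 showed no such order, with 3 of the 6. Since the libraries fell into separate clusters of keratin share, no correlation is given, and the part of the keratin share in these values was not tested. How many of all genes follow such an order was not counted, so the order is not shown to be particular to these genes.

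**Figure D4:**
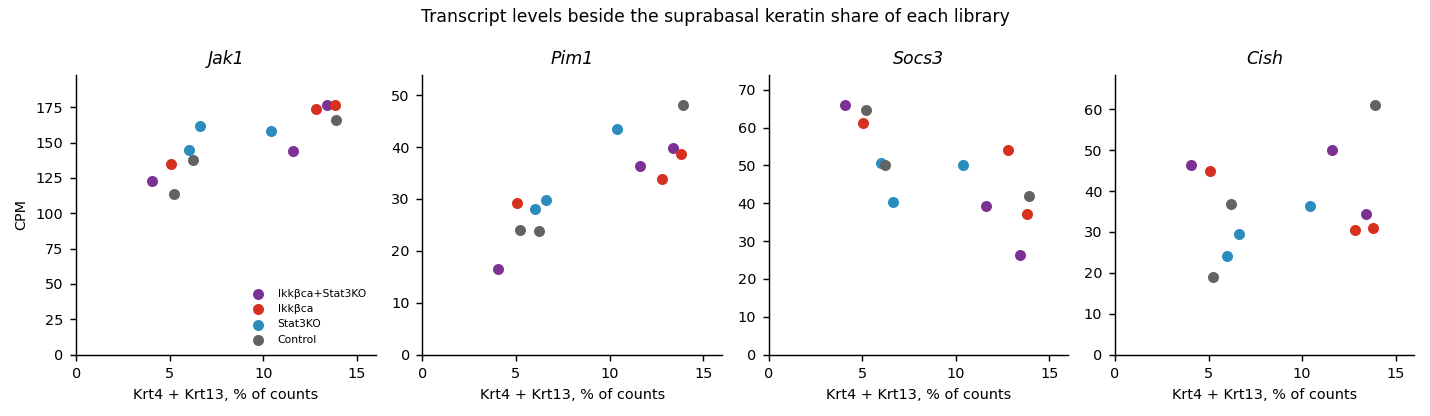
Level of Jak1, Pim1, Socs3 and Cish (CPM) against the share of counts from Krt4 and Krt13 (%), 1 point per library, coloured by group. The 6 libraries with a share of at most 6.62% are the 6 lowest for Pim1, while for Socs3 5 of them are among the 6 highest; Cish shows no such order.

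Over the 12 libraries, each gene was set against 11863 others by Pearson's correlation of log2 CPM, as a description that shares library composition and depth. Jak1 was most like Eif3c, Adam10 and Smap1 (each 0.97), and Pim1 most like Kctd20 (0.97), Nit1 and Pigg (each 0.96). Socs3 was most like 1810029B16Rik (0.93), Bbs12 (0.92) and Nr1d2 (0.89). Cish was most like Lrrc57 (0.88), Jund (0.83) and Btaf1 (0.81), and Jak2 most like 1110005A03Rik (0.85), St6galnac2 (0.84) and Sult1d1 (0.82). Tyk2 was most like Srrm2, Zfp160 (each 0.94) and Slc35d1 (0.93), and Pias3 most like 2310067B10Rik, Mllt10 and Zfp329 (each 0.89). Pim3 was most like Chml (0.89), Abca5 (0.86) and Mrps33 (0.83), Socs2 most like Pgm1 (0.87), Lyar and Zmynd19 (each 0.85), and Socs1 most like AK129341 (0.88), Cmtm7 (0.85) and Lyz2 (0.84). Among the 10 genes themselves, Tyk2 and Pias3 were closest (0.83), then Jak1 and Pim1 (0.77), while Jak1 and Socs3 ran most oppositely (-0.75).

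The rest of the pathway was read from lists grouped by role, chosen with earlier results of these data known. Counts of called genes in them are therefore no independent test. Among genes upstream of the JAKs, 5 of 29 tested receptor chains rose and none fell in the average Ikkβca effect, with a median log2 fold change of 0.29 against 0.0 over all genes, of which 2.12% rose. Il7r, the interleukin 7 receptor, rose by 3.13 ± 0.35, with 1.0 to 2.15 CPM in the Ikkβca+Stat3KO group against 0.109 to 0.406 CPM in the Stat3KO group, and 3.31 to 3.61 CPM in the Ikkβca group against 0.168 to 0.381 CPM in the Control group. Csf2rb, the shared chain of the GM-CSF, IL-3 and IL-5 receptors, rose by 1.95 ± 0.32, Il2rg, the common gamma chain, by 1.64 ± 0.33, and Ifngr2, an interferon gamma receptor chain, by 0.70 ± 0.14 (SE, log2). The interleukin 4 receptor chain Il4ra, named after its value was seen, rose by 0.50 ± 0.11 (SE, log2). These averages cover unlike rises in Ikkβca against Control and in Ikkβca+Stat3KO against Stat3KO. In that order, Il7r stood at 3.53 and 2.73, Csf2rb at 2.37 and 1.54, Il2rg at 1.66 and 1.63, and Ifngr2 at 0.75 and 0.65. Of the 29 chains, edgeR called Il7r and Csf2rb in the former, where it called 0.955% of all genes. In the latter it called Il7r alone, where 0.46% were called. Il7r, Csf2rb and Il2rg are also expressed by leukocytes. The 21 leukocyte markers in the files summed to 41.1 to 89.7 CPM in the Ikkβca+Stat3KO group, 131 to 384 CPM in the Ikkβca group, 54.9 to 86.9 CPM in the Stat3KO group and 40.3 to 92.0 CPM in the Control group. Lyz2 was an uneven part of these sums, with 11.6 to 26.8, 26.5 to 269, 30.8 to 49.9 and 13.6 to 42.5 CPM in the same order of groups. Of 13 leukocyte markers tested, 10 lay above 0 in Ikkβca+Stat3KO against Stat3KO (median log2 fold change 1.25) and 13 in Ikkβca against Control (1.69). In the average Ikkβca effect 3 of the 13 were called as risen, Cd207, Itgax and Flt3. The part of leukocytes in the receptor values was not tested. Of 18 ligands of the IL-6, IL-10 and interferon families in the files 4 could be tested, and edgeR called none; Il6 had 3 counts in Stat3KO replicate 2 and 0 in every other library.

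STAT3 targets other than the described genes included 6 of 30 that rose and none that fell in the average Ikkβca effect. Their median log2 fold change was 0.33, against 0.0 over all genes, of which 2.12% rose. This list too was chosen with earlier results known, so the count is no independent test. S100a8, a calprotectin subunit, had 10.8, 11.7 and 41.9 CPM in the Ikkβca+Stat3KO group, against 1.89, 2.24 and 1.69 CPM in the Stat3KO group, and 72.0, 123 and 185 CPM in the Ikkβca group, against 1.40, 0.941 and 1.10 CPM in the Control group. Its average rise was 5.12 ± 0.42 (SE, log2; adjusted p = 9.61e-05, edgeR). Lcn2, the siderophore-binding lipocalin, rose by 4.62 ± 0.52, the metalloreductase Steap4 by 3.48 ± 0.24, and S100a9, the other calprotectin subunit, by 2.57 ± 0.45 (SE, log2). The other 2 were Nfkbiz, an NF-κB cofactor, at 1.09 ± 0.25, and Il4ra, which stands in both lists. Again the averages cover unlike rises in Ikkβca against Control and in Ikkβca+Stat3KO against Stat3KO. In that order, S100a8 stood at 6.78 and 3.46, Lcn2 at 5.5 and 3.73, Steap4 at 3.78 and 3.19, and S100a9 at 3.61 and 1.53. S100a9 had 35.9 to 161 CPM in the Ikkβca+Stat3KO group, overlapping the 25.8 to 61.6 CPM of the Stat3KO group. EdgeR called no interaction for any of these genes. In these same libraries the interval for Socs3 was -0.54 to 0.40. Several of these targets are also induced by NF-κB, and the list does not separate the factors. S100a8 and Steap4 were called under each of 20 alternatives, with adjusted p values up to 0.0251 and 0.0103. A refit left out Ikkβca replicate 1 and Stat3KO replicates 2 and 3, the libraries richest in gastric or muscle transcripts. It kept Ikkβca replicate 2, with a muscle marker sum of 689 CPM, and rests on 1 Stat3KO library. The other genes named as risen, from Ikbkb and the receptor chains to the targets and leukocyte markers, were not called in it. Of these 12 genes, 5 had a higher log2 fold change without those libraries than with them, such as Lcn2 at 5.09 and S100a9 at 2.93, and 7 a lower one. Among the 7, Il7r stood at 2.75, Cd207 at 2.32, Itgax at 2.0, Csf2rb at 1.67 and Nfkbiz at 0.71. Of the 12 refits without 1 library, 4 did not call Flt3 and 5 did not call Il2rg, while 7 missed Ifngr2, 10 missed Il4ra and 11 missed Nfkbiz. The sign of these 5 genes was the same in every alternative.

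In the average Ikkβca effect, edgeR called 2.72% of all genes. It called none of the 4 other SOCS genes or the 4 other PIAS and Pim genes. Nor did it call any of the 11 phosphatases and adaptors that limit JAK signalling or of the 11 STAT5 targets. In lists this short, a count of 0 lies near that share. In the average Stat3KO effect edgeR called no gene of any of these lists, where 0.262% of all genes were called. Socs7 had the smallest p of the other SOCS genes there, with 49.0 to 54.4 CPM in the Ikkβca+Stat3KO group against 42.1 to 47.7 CPM in the Ikkβca group, and 47.0 to 50.3 CPM in the Stat3KO group against 39.7 to 43.6 CPM in the Control group. The groups were separate in both backgrounds, where 2.46% of all genes were, but the difference of 0.20 ± 0.06 was not called (SE, log2; adjusted p = 0.225, edgeR).

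**Figure D5:**
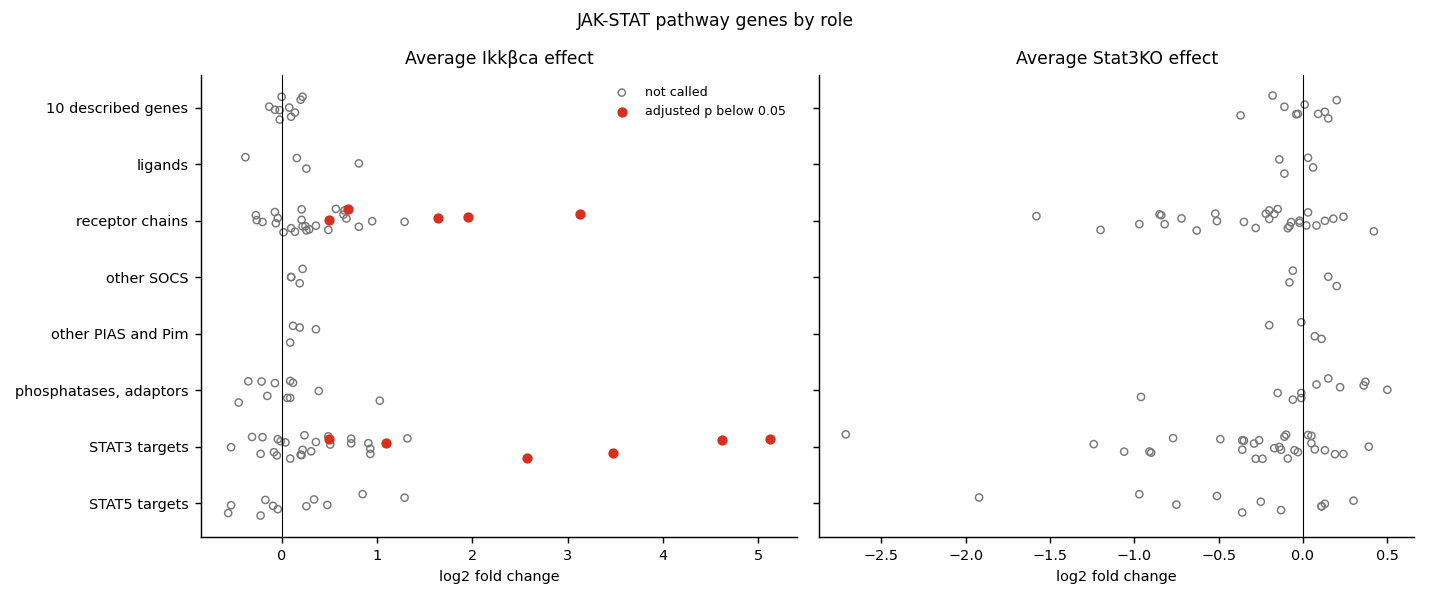
Log2 fold change of the tested genes of the pathway lists described, grouped by role, for the average Ikkβca effect (left) and the average Stat3KO effect (right). Filled red points have an adjusted p below 0.05. Called genes sit among receptor chains and STAT3 targets on the left, S100a8 reaching 5.12, while the 10 described genes lie close to 0 on both sides.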

How the data were processed

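Per the submitters' processing notes, reads were handled with cutadapt 1.13, STAR, HTSeq 0.6.1p1, DESeq2 and the mm10 build; the deposited files hold the authors' whole-number read counts per gene symbol. Strand and annotation of the counting are not given in the sources used here. Cish shares 13.1% and Pim1 15.0% of exon bases with an antisense gene, whose reads cannot be told apart. The members and gene lists were chosen with earlier results of these data known. Counts were fitted with edgeR 4.0.16 in R 4.3.3 (filterByExpr, 14134 genes; TMM; robust quasi-likelihood; 4 group means over 12 libraries; Benjamini-Hochberg over all genes, threshold 0.05). Average effects are the mean of both contrasts of an allele. Log2 values used a prior count of 2. The script was tested on simulated counts. Exon lengths and positions are from GENCODE M21, promoters from RefSeq. No library repeated another (smallest chi-square per degree of freedom 26.1). Named were the 10 genes, up to 4 genes per list by adjusted p, the 3 most alike genes, Stat3 and Ikbkb; other names followed their values. Alternatives were DESeq2 1.42.0, other scaling, filters, designs and left-out libraries. Some lists and genes are not reported here.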

Additional observations from a re-analysis of the deposited data

How the results depend on the processing

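The count of the 10 genes called was 0 under each of 21 alternatives in each comparison, or 20 for the averages and the interaction, which were not refitted on fewer groups. These were DESeq2 with its own factors, 2 other scalings, 2 other filters, no robust estimation, a replicate block, only the groups compared, each library left out, and a refit without the rich libraries. The rich libraries are those richest in gastric or muscle transcripts, Ikkβca replicate 1 and Stat3KO replicates 2 and 3. That refit leaves 1 Stat3KO library, assumed to vary like the others. Replicate numbers were not treated as pairs in the main fit, since the labels do not tie them. Deviations of same-numbered libraries correlated between -0.41 and 0.45, over 0.1 in 9 of 18 pairs. Of the 12 libraries, 8 were closest to one of their own number, and the main fit has no term for number or sex. Replicate 1 was the Xist-high library in all 4 groups, so the number follows sex in part, and with the replicate block 0 of the 10 genes were called. None of these fold changes was called, so none has a settled direction. Of 1650 values, 136 had the other sign, 107 of them with 1 library left out and 15 without the rich libraries, the largest reported size among them being 0.41, and 38 moved by at least 1 SE. Calls over all genes depended on the setting. The average Ikkβca effect had 384 calls, 845 by DESeq2, 217 on library totals, 503 with the block, 58 without the rich libraries and 184 to 444 with 1 library left out. The average Stat3KO effect had 37, 375 by DESeq2, 0 on library totals, with the block or without the rich libraries, and 0 to 52 with 1 library left out. DESeq2 called 419 genes in Ikkβca against Control (edgeR 135), 451 in Ikkβca+Stat3KO against Control (125), 292 against Stat3KO (65), 131 against Ikkβca (0), 104 in Stat3KO against Control (0) and 5 in the interaction (0). Of 14 genes named as risen in the average Ikkβca effect, 12 were not called without the rich libraries, although 5 of the 12 then had a higher fold change and 7 a lower one, 6 not with some single library left out, and 2 were called throughout. Socs1 and Socs2 had the fewest counts of the 10 genes.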
